A study of Mus musculus with 6 samples.

Results

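Arterial and endothelial genes were followed in tailbuds of mouse embryos at E9.5, in 3 libraries from homozygous Danforth's short tail embryos (Sd/Sd) and 3 from wild-type embryos (WT/WT, called WT here), all on the outbred CD-1 background. The 10 genes, of 37310 identifiers counted in each library, were chosen by name. They are 8 genes of arterial endothelium (Gja5, Gja4, Dll4, Notch4, Hey1, Hey2, Efnb2 and Sox18), and Pecam1 and Cdh5. The last 2 serve as measures of endothelial amount, relative to the other RNA of a tailbud. Earlier values of the same Sd/Sd against WT comparison were known when the genes were chosen, so the differences between the groups in these 10 genes are given as a description, with no test, and support nothing. Danforth's short tail arose from an insertion beside Ptf1a, which encodes a transcription factor; carriers have a short tail and defects of notochord, hindgut and kidneys, and every cell of an Sd/Sd embryo carries 2 mutant alleles. Polyadenylated RNA was sequenced from whole tailbuds cut just before the last somite, some of them pooled from 2 embryos, so vessels are a minority among neural, mesodermal and gut tissue.

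Endothelial cells line all blood vessels, and in the early embryo they take on an arterial or a venous identity before and while blood flow starts. Arterial identity depends on Notch signalling: the ligand Dll4 on one cell activates Notch receptors on its neighbour. The cleaved receptor joins the DNA-binding protein RBPJ, and the repressor genes Hey1 and Hey2 are switched on. Notch4 encodes a Notch receptor of endothelium. Arterial cells also carry the ligand ephrin-B2 (Efnb2), whose receptor EphB4 marks veins, and the gap junction proteins connexin 40 (Gja5) and connexin 37 (Gja4). In zebrafish, sonic hedgehog from the notochord acts through Vegfa upstream of Notch in the arterial program.

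Promoter windows of 3 members are shown because they stand for the groups the levels fall into: Gja5 and Dll4, whose values were lower in every Sd/Sd library than in every WT library, and Hey2, a direct Notch target gene whose values overlapped. Each window runs from 250 bases before the gene's start to 30 bases after it, 5′ to 3′ along the gene, with sequences from RefSeq on GRCm38.p6, which is not the build of the counts. Capitals mark TGGGAA, the core bound by RBPJ, searched on both strands. The windows are chr3:97032152-97032431 on the plus strand for Gja5, chr2:119325534-119325813 on the plus strand for Dll4, and chr10:30842754-30843033 on the minus strand for Hey2.
Gja5: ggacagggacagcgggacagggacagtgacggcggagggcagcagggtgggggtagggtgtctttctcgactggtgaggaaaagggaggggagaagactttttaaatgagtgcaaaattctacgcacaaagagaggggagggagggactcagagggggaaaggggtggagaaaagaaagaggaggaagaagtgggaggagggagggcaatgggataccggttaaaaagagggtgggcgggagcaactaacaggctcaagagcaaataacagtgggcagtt
Dll4: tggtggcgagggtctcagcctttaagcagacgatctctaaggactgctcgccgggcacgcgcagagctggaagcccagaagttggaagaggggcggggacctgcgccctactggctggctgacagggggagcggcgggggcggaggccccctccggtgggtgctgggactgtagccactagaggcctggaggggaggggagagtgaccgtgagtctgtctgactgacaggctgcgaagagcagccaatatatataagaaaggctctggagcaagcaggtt
Hey2: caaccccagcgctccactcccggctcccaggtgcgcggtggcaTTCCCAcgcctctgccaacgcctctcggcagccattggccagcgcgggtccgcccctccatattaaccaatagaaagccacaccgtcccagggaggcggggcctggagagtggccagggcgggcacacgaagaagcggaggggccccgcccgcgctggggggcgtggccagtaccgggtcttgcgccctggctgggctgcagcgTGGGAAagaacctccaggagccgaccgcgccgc

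The Hey2 window held 2 matches to TGGGAA, one on the minus strand that begins at -207 and one on the plus strand that begins at -3 and runs across the start. The windows of the other 5 members found in the table (Gja5, Gja4, Dll4, Notch4 and Efnb2) held 0. Of 32851 promoter windows of the same length, 23.8% held at least 1 match and 3.40% at least 2, so a single match is common. CACGTG, an E-box that HEY factors bind, was in 0 of the 6 windows and in 6.79% of all windows, and neither motif overlapped the other. The table did not list Hey1, Sox18, Pecam1 and Cdh5. A match is a description of letters, and the absence of one says only that these letters are not in this window.

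Total counts ran from 41788978 to 62296689 per Sd/Sd library and from 42352598 to 52767718 per WT library. All 10 genes were among the 15471 that passed the filter on low counts, with 443 to 8765 counts in each library. Levels are in CPM, which are counts divided by the library total after TMM scaling. Differences are log2 fold changes of Sd/Sd over WT from edgeR with a standard error (SE). The SE was derived as the absolute log2 fold change divided by the square root of the edgeR F statistic. The check of the mutation held in every library: Ptf1a measured 18.0 ± 3.65 CPM in Sd/Sd and 0.0521 ± 0.0377 CPM in WT (SD, n = 3 each). Sd/Sd replicate 3 stood apart in other tissues. Its 12 somite and presomitic genes summed to 199 CPM, against 502 and 519 CPM in Sd/Sd replicates 1 and 2 and 304 to 399 CPM in WT, and its 7 tested neural tube genes to 74.9 CPM, against 183 and 223 CPM in Sd/Sd replicates 1 and 2 and 137 to 185 CPM in WT. In Sd/Sd replicate 3, 9 of the 12 somite and presomitic genes lay under every WT library, where 32.2% of all genes did. Tbx6 at 101 CPM and Msgn1 at 63.1 CPM went the other way, above every WT library, where 29.1% of all genes lay. Results are therefore given with and without that library where it matters.

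The connexin genes Gja5 and Gja4 had lower values in each Sd/Sd library than in any WT library. Gja5, which encodes connexin 40 of arterial endothelium and the heart's atria and conduction system, measured 20.5, 21.8 and 16.2 CPM in Sd/Sd replicates 1 to 3 and 29.3, 33.5 and 27.5 CPM in WT replicates 1 to 3. The groups did not overlap, and Sd/Sd replicate 3 was the lowest library. The log2 fold change of Gja5 was -0.63 (SE 0.13), and -0.51 (SE 0.11) without Sd/Sd replicate 3. Gja4, which encodes connexin 37, measured 10.7, 11.7 and 9.91 CPM in Sd/Sd and 16.5, 13.1 and 14.1 CPM in WT, again without overlap, with a log2 fold change of -0.43 (SE 0.13). In a bulk sample of this kind, fewer endothelial cells and less RNA per endothelial cell cannot be told apart.

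The Notch ligand and receptor of endothelium showed the same order of groups. Dll4 measured 12.3, 8.78 and 11.1 CPM in Sd/Sd and 15.1, 14.9 and 18.5 CPM in WT. Every Sd/Sd library lay under every WT library, with Sd/Sd replicate 2 the lowest, and the log2 fold change of Dll4 was -0.59 (SE 0.16). Notch4 measured 46.7, 36.7 and 38.6 CPM in Sd/Sd and 51.9, 50.5 and 58.0 CPM in WT. Its groups did not overlap either, though Sd/Sd replicate 1 came close to the lowest WT library, and the log2 fold change of Notch4 was -0.39 (SE 0.11). Without Sd/Sd replicate 3, Dll4 stood at -0.61 (SE 0.18) and Notch4 at -0.36 (SE 0.12).

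Hey1 and Hey2, the repressor genes that Notch induces, did not separate the groups. Hey1 measured 49.6, 44.6 and 37.6 CPM in Sd/Sd and 47.1, 45.5 and 48.5 CPM in WT, so that Sd/Sd replicate 1 was the highest of the 6 libraries and Sd/Sd replicate 3 the lowest. Its log2 fold change was -0.10 (SE 0.10), and 0.00 (SE 0.08) without Sd/Sd replicate 3. Hey2 measured 29.2, 23.0 and 27.4 CPM in Sd/Sd and 29.2, 26.7 and 26.4 CPM in WT, with Sd/Sd replicate 2 the lowest library and a log2 fold change of -0.05 (SE 0.11). The sign of Hey2 turned without Sd/Sd replicate 2 (0.04) and without WT replicate 1 (0.00). Both genes are also known from non-endothelial tissue of the trunk, Hey1 and Hey2 from somites and presomitic mesoderm, so their tailbud level is not a measure of arterial cells alone.

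Efnb2, the ephrin-B2 gene, was low in 1 library. It measured 77.5, 81.2 and 34.6 CPM in Sd/Sd and 83.0, 74.1 and 64.4 CPM in WT: Sd/Sd replicates 1 and 2 lay inside the WT range and Sd/Sd replicate 3 far under it. The log2 fold change of Efnb2 was -0.20 (SE 0.35), and 0.10 (SE 0.10) without Sd/Sd replicate 3, so the sign rested on that library. Efnb2 is known from somites and neural tissue as well as arteries, and the library in which it was low is the one with the lowest summed somite and neural tube levels given above. Their part in the Efnb2 level was not tested.

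Sox18, a SOXF transcription factor gene of endothelium that acts in arterial and lymphatic specification, measured 22.2, 22.4 and 24.99 CPM in Sd/Sd and 29.7, 28.2 and 25.3 CPM in WT. The groups did not overlap, but Sd/Sd replicate 3 lay just under WT replicate 3. The log2 fold change of Sox18 was -0.26 (SE 0.10), and -0.31 (SE 0.10) without Sd/Sd replicate 3. Among the 8 arterial genes, Sox18 was the one in which Sd/Sd replicate 3 was the highest Sd/Sd library and the groups still separated.

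**Figure D1:**
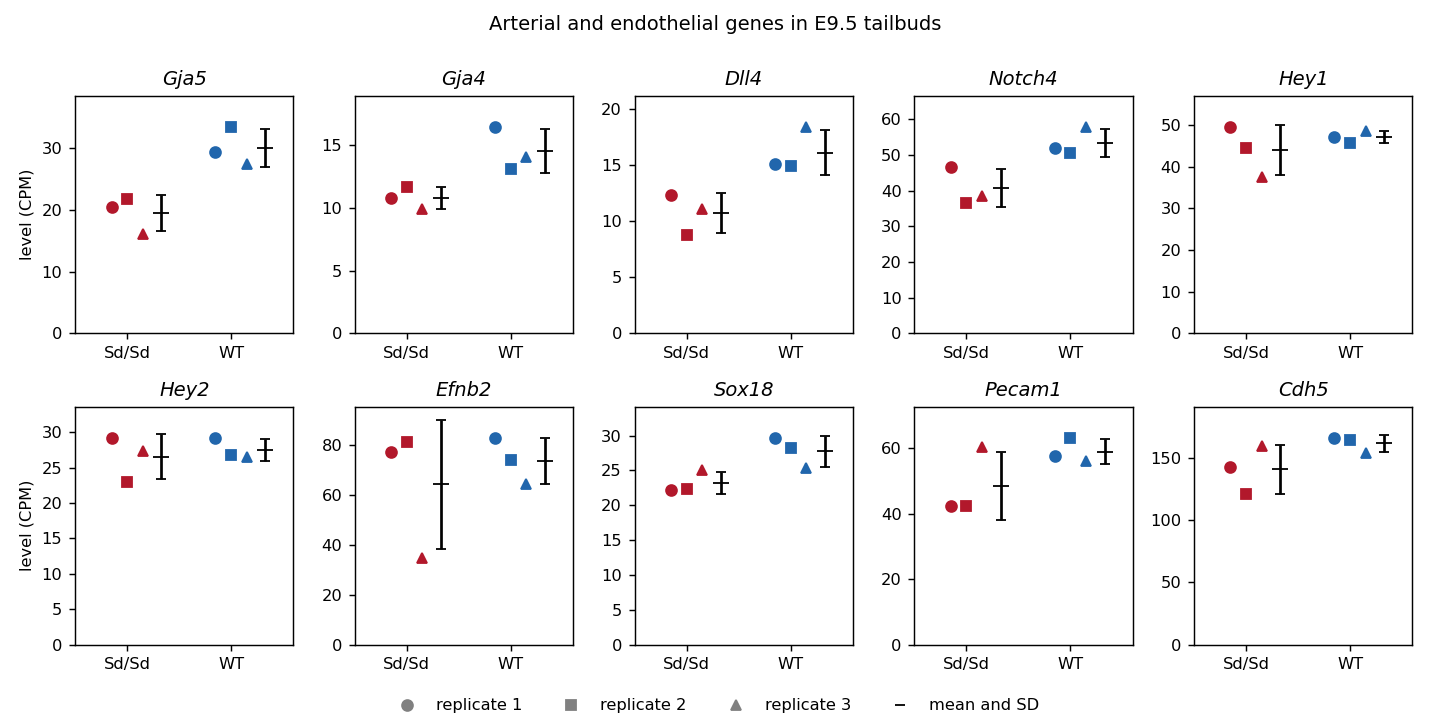
Level in CPM (vertical axes, from 0) of the 8 arterial genes, Pecam1 and Cdh5 in the 3 Sd/Sd libraries (red, left) and the 3 WT libraries (blue, right), with a symbol per replicate number and the mean and SD of each group in black. Gja5, Gja4, Dll4, Notch4 and Sox18 do not overlap between groups; Efnb2 is low in Sd/Sd replicate 3 at 34.6 CPM, and Pecam1 and Cdh5 in that library lie among the WT values.

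Pecam1 and Cdh5, taken as the amount of endothelium, divided the Sd/Sd libraries. Pecam1, which encodes the adhesion protein CD31 of endothelial junctions, measured 42.3, 42.4 and 60.4 CPM in Sd/Sd and 57.6, 63.2 and 56.2 CPM in WT. Cdh5, which encodes VE-cadherin, measured 142, 121 and 160 CPM in Sd/Sd and 166, 164 and 154 CPM in WT. In Sd/Sd replicates 1 and 2 both genes were under every WT library, and in Sd/Sd replicate 3 both were inside the WT range. The log2 fold changes over all libraries were -0.29 (SE 0.14) for Pecam1 and -0.20 (SE 0.10) for Cdh5. Without Sd/Sd replicate 3 they were -0.48 (SE 0.08) and -0.30 (SE 0.09).

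Pecam1 is also found on platelets and on some leukocytes. The 6 tested megakaryocyte and platelet genes summed to 8.13, 18.7 and 17.5 CPM in Sd/Sd and 12.4 to 15.1 CPM in WT, and 3 of 9 macrophage genes were tested, with a sum of 3.92 to 5.48 CPM in Sd/Sd and 5.16 to 5.92 CPM in WT. Most of the platelet sums came from Itga2b, at 6.53, 10.7 and 13.4 CPM in Sd/Sd and 8.32 to 12.0 CPM in WT. The part of platelets and leukocytes in the Pecam1 level was not tested. The difference of Pecam1 minus Cdh5 on the log2 CPM scale was -1.75, -1.51 and -1.40 in Sd/Sd and -1.53, -1.38 and -1.46 in WT, with Sd/Sd replicate 1 under all WT libraries and the other two Sd/Sd libraries inside the WT range.

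Of the 10 genes, 5 (Gja5, Gja4, Dll4, Notch4 and Sox18) lay under every WT library in all 3 Sd/Sd libraries, where 4.42% of all tested genes did, and without Sd/Sd replicate 3, counted after seeing the data, 7 of 10 did, with Pecam1 and Cdh5 added, where 10.6% of all genes did. A negative log2 fold change was found for 10 of the 10, where 50.1% of all genes had one. The 8 arterial genes had a median log2 fold change of -0.33, and all tested genes a median of 0.00. Nothing is read from these shares, since the comparison was known when the genes were chosen.

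Arterial level set against endothelial amount was then described in each library. The arterial score, the mean log2 CPM of the 8 arterial genes, was 4.78, 4.65 and 4.48 in Sd/Sd and 5.03, 4.95 and 4.96 in WT. The endothelial amount, the mean log2 CPM of Pecam1 and Cdh5, was 6.28, 6.16 and 6.62 in Sd/Sd and 6.61, 6.67 and 6.54 in WT. The arterial score minus the endothelial amount was -1.50, -1.52 and -2.14 in Sd/Sd and -1.58, -1.72 and -1.58 in WT. Sd/Sd replicates 1 and 2 thus had less of both and a difference just above all WT libraries, while Sd/Sd replicate 3 had WT-like endothelial amount and the lowest arterial score. CPM are shares of a library, so the endothelial amount is relative to the other RNA in it. The part of the low somite and neural tube sums of Sd/Sd replicate 3 in its endothelial amount was not tested. The group difference in this measure was -0.09 on the log2 scale, smaller than its SD within Sd/Sd of 0.36. It turned to 0.12 without Sd/Sd replicate 3. Without Hey1, Hey2 and Efnb2, also known from other tissues, the measure was -1.99, -1.997 and -2.473 in Sd/Sd and -1.927, -2.04 and -1.875 in WT. Sd/Sd replicates 1 and 2 then lay inside the WT range, and Sd/Sd replicate 3 under it. The group difference was then -0.206, with an SD within Sd/Sd of 0.277. The place of Sd/Sd replicates 1 and 2 above all WT libraries thus rested on those 3 genes.

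Single genes did not share the pattern of the arterial score equally. Relative to endothelial amount, Gja5 stood at -1.92, -1.71 and -2.60 in Sd/Sd and -1.74, -1.61 and -1.76 in WT, so that Sd/Sd replicate 2 lay among the WT values. Dll4 stood at -2.65, -3.02 and -3.14 in Sd/Sd and -2.69, -2.77 and -2.33 in WT, with Sd/Sd replicates 2 and 3 under all WT libraries and replicate 1 among them. Notch4 stood at -0.73, -0.97 and -1.34 in Sd/Sd and -0.91, -1.01 and -0.68 in WT, and Gja4 at -2.85, -2.61 and -3.30 in Sd/Sd and -2.57, -2.96 and -2.72 in WT. In both, Sd/Sd replicate 3 was alone under the WT range. Sox18 stood at -1.80, -1.68 and -1.97 in Sd/Sd and -1.72, -1.85 and -1.88 in WT, with a group difference of 0.00. Hey2 stood at -1.41, -1.63 and -1.84 in Sd/Sd and -1.74, -1.93 and -1.81 in WT, and Hey1 at -0.65, -0.68 and -1.38 in Sd/Sd and -1.05, -1.16 and -0.94 in WT, so both were above every WT library in Sd/Sd replicates 1 and 2. Efnb2 stood at 0.00, 0.18 and -1.50 in Sd/Sd and -0.24, -0.46 and -0.53 in WT. None of the 8 genes separated the groups once set against endothelial amount.

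**Figure D2:**
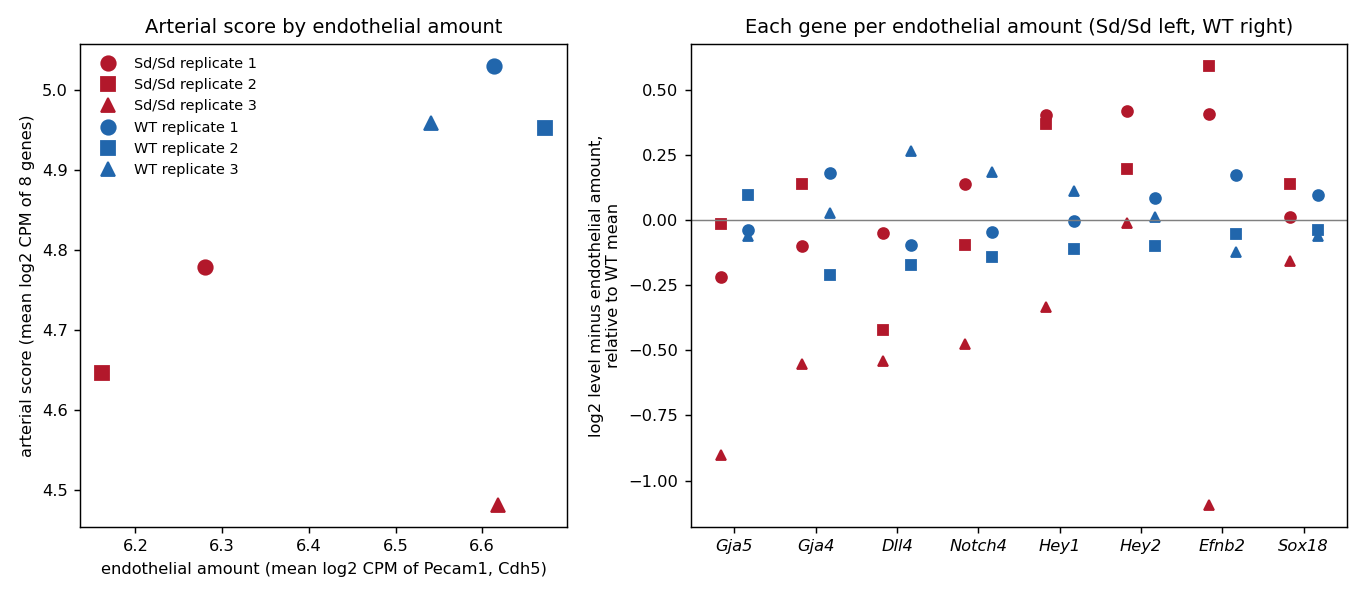
Left, arterial score against endothelial amount (both mean log2 CPM) for each of the 6 libraries; right, the log2 level of each arterial gene minus the endothelial amount, relative to the WT mean, with Sd/Sd (red) left of WT (blue). Sd/Sd replicate 3 (red triangle) lies at an endothelial amount of 6.62, within the WT range, and at the lowest arterial score, 4.48.

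A wider list of 26 endothelial genes gave the same division of the Sd/Sd libraries. It holds VEGF and angiopoietin receptors (Kdr, Flt1, Tek, Tie1), ETS factors, junction proteins and surface markers, and none of the 10 members. In Sd/Sd replicate 1, 21 of the 26 genes lay under every WT library, where 29.8% of all tested genes did. In Sd/Sd replicate 2 it was 19 of 26, where 27.3% of all genes did, and in Sd/Sd replicate 3 it was 2 of 26, where 32.2% did. In Sd/Sd replicate 3, 9 of 26 lay above every WT library, where 29.1% of all genes did. The list's summed level was 829, 891 and 1118 CPM in Sd/Sd replicates 1 to 3 and 962 to 1084 CPM in WT.

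Over all libraries, 24 of the 26 endothelial genes had log2 fold changes below 0, and the median was -0.14. None passed an adjusted p of 0.05 in edgeR, where 0.0582% of all tested genes did, or in DESeq2, run as an alternative, and 1 had an unadjusted edgeR p under 0.05, where 2.90% of all genes did. That gene, Esm1, a secreted proteoglycan gene of sprouting endothelium, was also the lowest, at 1.55, 1.33 and 1.94 CPM in Sd/Sd and 2.05, 3.01 and 2.32 CPM in WT (log2 fold change -0.62, SE 0.26, edgeR adjusted p = 1.00). S1pr1, a sphingosine 1-phosphate receptor gene, measured 14.99, 15.3 and 21.1 CPM in Sd/Sd and 20.6, 22.7 and 20.8 CPM in WT (log2 fold change -0.31, SE 0.14, edgeR adjusted p = 1.00), with the same return to WT level in Sd/Sd replicate 3. The highest, Etv2, an ETS factor gene of endothelial and blood progenitors, stood at 0.15 on the log2 scale (SE 0.33, edgeR adjusted p = 1.00). Without Sd/Sd replicate 3 the list's median was -0.31, and 16 of 26 genes lay under every WT library, where 10.6% of all genes did. With that library it was 1 of 26, or 3.85%, near the 4.42% of all genes.

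Other arterial genes were described from a list of 12, of which 11 were tested; Bmx is listed at 0 in every library, as are all 2269 identifiers on chromosome X. All 11 log2 fold changes were below 0 (median -0.13), and 0 passed edgeR or DESeq2. An unadjusted edgeR p under 0.05 was found for 2 of the 11, where 2.90% of all tested genes had one. With Sd/Sd replicate 3 left out, 9 of the 11 were below 0 and 3 lay under every WT library, where 10.6% of all genes did, against 1 with it, where 4.42% did. Sema3g, a semaphorin gene of arterial endothelium, measured 12.0, 10.4 and 12.7 CPM in Sd/Sd and 14.3, 14.2 and 14.9 CPM in WT, without overlap (log2 fold change -0.30, SE 0.12, edgeR adjusted p = 1.00). Cxcr4, a chemokine receptor gene of arterial endothelium and of mesenchyme, measured 19.3, 22.1 and 20.7 CPM in Sd/Sd and 27.6, 20.8 and 36.7 CPM in WT, with overlap through WT replicate 2 (log2 fold change -0.45, SE 0.19, edgeR adjusted p = 1.00). That size moved with single WT libraries, to -0.63 without WT replicate 2 and to -0.23 without WT replicate 3. Ltbp4, a latent TGF-beta binding protein gene, was nearest to 0 at -0.03 (SE 0.13).

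Of 6 venous genes tested, 3 had a negative log2 fold change, the median was -0.02, and 0 passed edgeR or DESeq2 or had an unadjusted p under 0.05. Without Sd/Sd replicate 3, 5 of the 6 were negative, the median was -0.105, and 1 lay under every WT library, where 10.6% of all genes did, against 0 with it. Their summed level was 709, 710 and 742 CPM in Sd/Sd and 693 to 769 CPM in WT. On the log2 scale Aplnr, the apelin receptor gene, stood at -0.15 (SE 0.11), Dab2, an endocytic adaptor gene, at -0.10 (SE 0.11), and Nr2f2, the nuclear receptor gene that sets venous identity and is also known from mesenchyme, at 0.22 (SE 0.34; edgeR adjusted p = 1.00 for the 3 genes). The difference between arterial and venous lists was not tested. The 3 lymphatic genes tested, Lyve1, Prox1 and Pdpn, had log2 fold changes of -0.58 (SE 0.36), -0.27 (SE 0.21) and 0.03 (SE 0.21). The groups overlapped in each of the 3, and 0 had an unadjusted p under 0.05. Lyve1, a hyaluronan receptor gene, measured 1.65 ± 0.566 CPM in Sd/Sd and 2.47 ± 0.857 CPM in WT (SD, n = 3 each).

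**Figure D3:**
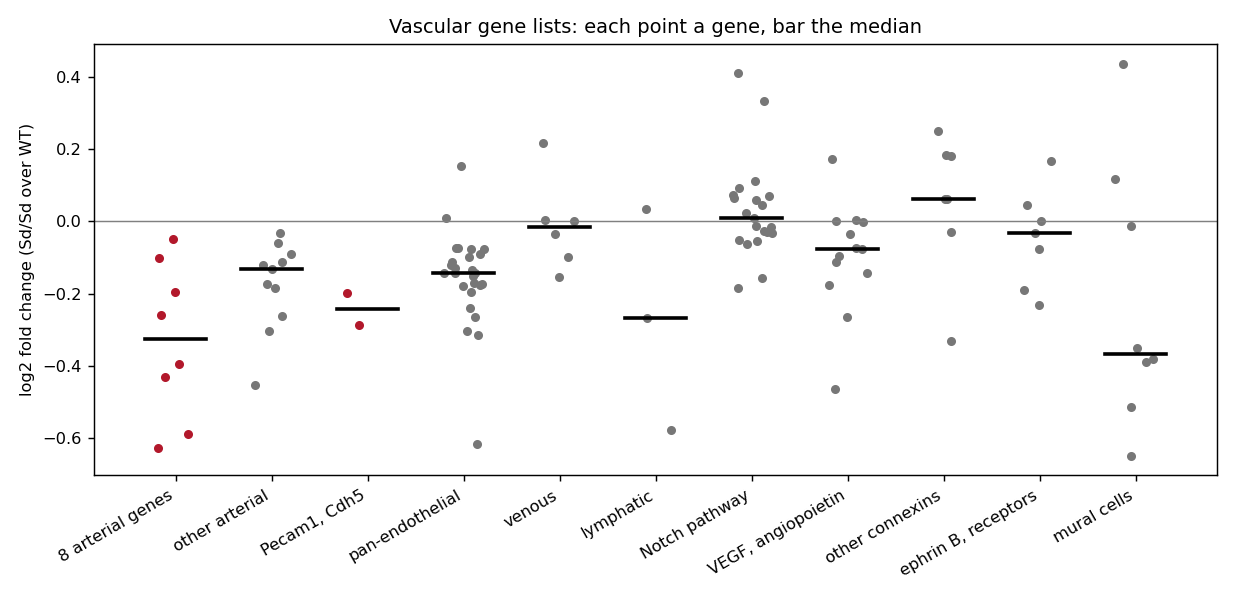
log2 fold change of Sd/Sd over WT (vertical axis) for each tested gene of 11 vascular and signalling lists, with the 10 members in red, other genes in grey and the list median as a black bar. The 8 arterial genes have a median of -0.33, the other arterial genes -0.13, the pan-endothelial genes -0.14 and the venous genes -0.02.

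The rest of the Notch pathway was a list of 21 genes without the members. It had 10 genes with a negative and 11 with a positive log2 fold change and a median of 0.01. Of these, 0 passed edgeR or DESeq2, and 1 had an unadjusted edgeR p under 0.05, where 2.90% of all tested genes did. That gene, Lfng, which encodes the Fringe enzyme that modifies Notch receptors and cycles in presomitic mesoderm, measured 58.2, 47.1 and 49.1 CPM in Sd/Sd and 40.4, 41.1 and 34.6 CPM in WT, higher in every Sd/Sd library (log2 fold change 0.41, SE 0.10, edgeR adjusted p = 0.973). Jag2, a Notch ligand gene, measured 28.3, 32.1 and 31.0 CPM in Sd/Sd and 34.5, 32.8 and 34.7 CPM in WT (log2 fold change -0.16, SE 0.08, edgeR adjusted p = 1.00). Dll3, a ligand-like gene of presomitic mesoderm, was the lowest at -0.19 (SE 0.25), and its sign turned without Sd/Sd replicate 2. The difference between this list and the members was not tested.

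Vegfa was the VEGF and angiopoietin gene with the largest difference. This growth factor gene, upstream of Notch in arterial endothelium, measured 90.7, 76.4 and 96.1 CPM in Sd/Sd and 98.3, 123 and 142 CPM in WT, with no overlap, although Sd/Sd replicate 3 lay just under WT replicate 1 (log2 fold change -0.46, SE 0.14, edgeR adjusted p = 1.00). Of the 13 genes in that list 10 had a negative log2 fold change (median -0.08), and 0 passed edgeR or DESeq2. Only 1, Vegfa, had an unadjusted edgeR p under 0.05, where 2.90% of all tested genes did. The median was -0.29 without Sd/Sd replicate 3, and 6 of 13 then lay under every WT library, where 10.6% of all genes did, against 1 of 13 with it, where 4.42% did. Among those 6, Kdr, Tek and Tie1 are also on the pan-endothelial list and were already counted there. Flt1 is shared with that list too, Nrp1 with the other arterial list, and Nrp2 and Flt4 with the venous list, so this is not a separate set of genes. Tie1, an endothelial receptor gene that is also on the pan-endothelial list, stood at -0.18 (SE 0.11), and at -0.30 (SE 0.08) without Sd/Sd replicate 3, and Pgf, the placental growth factor gene, at 0.17 (SE 0.22; edgeR adjusted p = 1.00 for both). Shh and Ihh, the hedgehog ligand genes, were among the 9 genes that passed. Shh measured 6.74, 5.09 and 4.30 CPM in Sd/Sd and 15.5, 13.4 and 16.5 CPM in WT (log2 fold change -1.49, SE 0.18, edgeR adjusted p = 0.0438), a call that was lost when any 1 library was left out (adjusted p 0.0615 to 0.263). Ihh measured 0.776, 0.751 and 0.836 CPM in Sd/Sd and 3.11, 2.59 and 3.29 CPM in WT (-1.93 on the log2 scale, SE 0.24, with an edgeR adjusted p of 0.0438), and that call too was lost in the same 6 fits (adjusted p 0.0933 to 0.317).

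Other connexin and ephrin-B genes were set beside Gja5, Gja4 and Efnb2. Of 17 further connexin genes 7 were tested. Gja1, the widely expressed connexin 43 gene, measured 311, 249 and 331 CPM in Sd/Sd and 327, 257 and 325 CPM in WT (log2 fold change -0.03, SE 0.13), and Gjc1, the connexin 45 gene, 123, 114 and 121 CPM in Sd/Sd and 113, 113 and 117 CPM in WT (log2 fold change 0.06, SE 0.06). Both had an edgeR adjusted p = 1.00, as did Gjb6 (-0.33, SE 0.36) and Gjb5 (0.18, SE 0.29). Among 7 ephrin-B and receptor genes the log2 fold changes of Ephb2, Ephb1 and Ephb6 were -0.19 (SE 0.10), -0.23 (SE 0.15) and 0.17 (SE 0.12; edgeR adjusted p = 1.00 for the 3 genes). In both lists 0 genes passed edgeR or DESeq2 or had an unadjusted p under 0.05. The connexin list had a median of 0.06, and of -0.11 without Sd/Sd replicate 3. The difference between these lists and the members was not tested.

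Levels per length were used to order the members within WT. Divided by exon length, Cdh5 stood highest at 38.5 ± 1.53 CPM per kb in WT (SD, n = 3), then Sox18 at 17.1 ± 1.36, Hey1 at 14.4 ± 0.458 and Efnb2 at 10.8 ± 1.36. Pecam1 followed at 9.47 ± 0.597, Gja4 at 8.63 ± 1.04, Notch4 at 6.63 ± 0.492, Hey2 at 5.98 ± 0.331, Gja5 at 5.24 ± 0.538 and Dll4 at 4.19 ± 0.520 CPM per kb. The WT libraries of neighbours in this order overlapped for Efnb2 and Pecam1, Pecam1 and Gja4, Notch4 and Hey2, Hey2 and Gja5, and Gja5 and Dll4, and did not overlap for the other 4 pairs. In Sd/Sd the order of means was the same except that Hey2, at 5.78 ± 0.692 CPM per kb, stood above Notch4, at 5.05 ± 0.664.

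The genes whose log2 CPM ran most like the endothelial amount over the 6 libraries were named as a description, from 12571 genes with a mean of at least 1 CPM. The nearest were Olfm2 (Pearson r = 0.991), Afap1l1 (0.990), Agtr1a (0.987), Klhl6 (0.987), Mtmr7 (0.986), Itga5 (0.983), Ralgps1 (0.980), Dlx5 (0.979), Sgk1 (0.977) and Wdr45b (0.976), and 0 of these 10 were on a vascular list. The 26 pan-endothelial genes had a median r of 0.74, where all candidates had a median of -0.01; S1pr1 was the nearest of them at rank 21. The 11 other arterial genes had a median r of 0.26 and the 21 Notch pathway genes 0.09. All genes of a library share its depth and tissue makeup, and r over 6 libraries is given here with no p.

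The genes nearest to the arterial score were Gm12258 (Pearson r = 0.992), Nkx2-9 (0.990), Crb3 (0.985), Entpd3 (0.979), Depp1 (0.978), Triqk (0.975), Rps26 (0.975), Foxa1 (0.975), Ret (0.971) and Trp53i11 (0.969). Of these, Nkx2-9 is a ventral neural tube gene, Foxa1 an endoderm and floor plate gene, Crb3 an epithelial polarity gene and Ret a nephric duct receptor gene. Median r with the arterial score was 0.83 for 10 hindgut genes and 0.07 for the 26 pan-endothelial genes, where all candidates had 0.03. The same hindgut genes had a median r of 0.64 with the endothelial amount. The hindgut list includes Foxa1, named here among the nearest genes, and Shh and Ihh, given above. Sox17 is on both the hindgut list and the list of other arterial genes, and had an r of 0.90 with the arterial score. Both the arterial score and the hindgut genes had lower values in Sd/Sd, and r over the 6 libraries includes that difference.

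Markers of other cells were set beside these results. The erythroid genes, 9 of 10 tested, summed to 1948, 10487 and 3095 CPM in Sd/Sd and 4560, 9277 and 3952 CPM in WT. Sd/Sd replicates 1 and 2 lay at opposite ends. Mural cell genes, 8 of 9 tested, summed to 517 to 574 CPM in Sd/Sd and 524 to 632 CPM in WT, and haemogenic genes, 6 of 6 tested, to 80.7 to 118 CPM in Sd/Sd and 93.8 to 106 CPM in WT. Heart genes, where Gja5 and Hey2 are also known, were near 0: 6 of 9 were tested, with a sum of 4.33 to 4.71 CPM in Sd/Sd and 5.22 to 5.68 CPM in WT, and Nkx2-5, Nppa and Nppb did not pass the filter. Hindgut genes summed to 184 to 315 CPM in Sd/Sd and 287 to 369 CPM in WT. Of these sums Cdx2 alone gave 66.9 to 188 CPM in Sd/Sd and 103 to 167 CPM in WT (log2 fold change -0.04, SE 0.43). Of the 10 hindgut genes, 8 lay under every WT library in all Sd/Sd libraries, where 4.42% of all genes did. Those 8 include Shh, Ihh and Foxa1, which were already given above, so they are not a separate set of genes. The part of these cells in the members' levels was not tested.

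**Figure D4:**
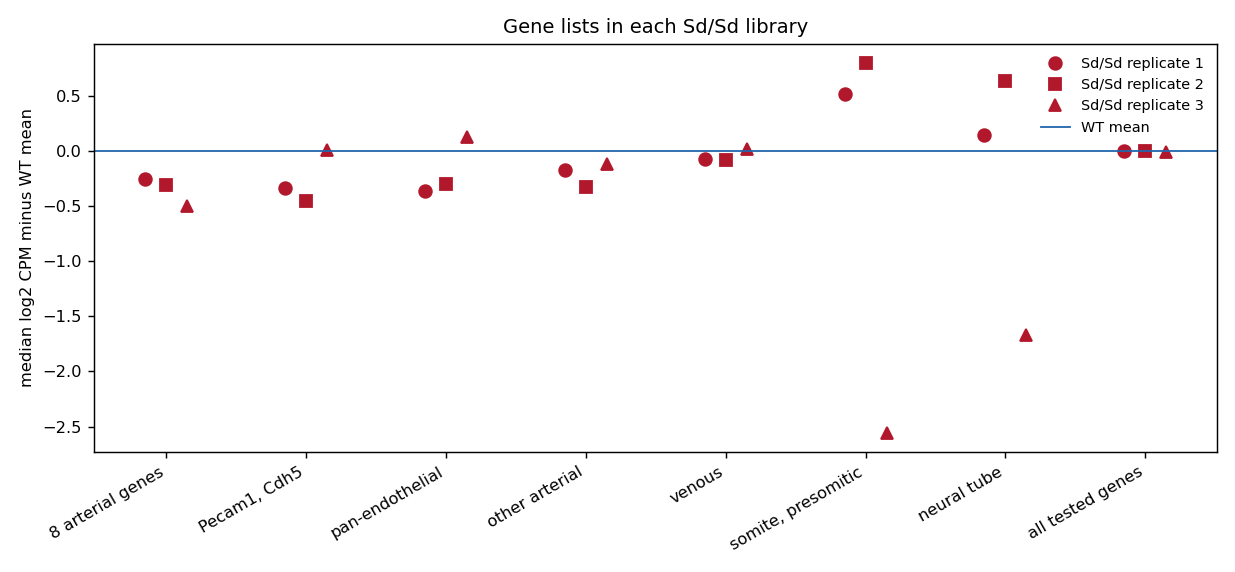
Median over a list of log2 CPM minus the WT mean (vertical axis) in each of the 3 Sd/Sd libraries, for 8 gene sets; the blue line is the WT mean. The pan-endothelial median is -0.36, -0.30 and 0.13 and that of the 8 arterial genes -0.25, -0.31 and -0.50 in Sd/Sd replicates 1 to 3, and the somite and neural tube medians are far below 0 in replicate 3.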

How the data were processed

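Polyadenylated RNA of 3 Sd/Sd and 3 WT libraries was sequenced from stranded mRNA libraries, per the labels' protocols. The authors deposited raw counts per gene, 1 file per library; the submitters' processing notes name bcl2fastq 2.17.1.14, CASAVA, STAR 2.5.2b, SAMtools, DESeq2 and build mm9. Not given in the sources used here: which program counted reads, whether it used strand, and the annotation release. Reads of overlapping or antisense genes may therefore be shared. GENCODE M21 (GRCm38) gave symbols for 32620 of 37310 identifiers, and the exon lengths behind levels per length.

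The filterByExpr step (at least 10 counts, and 15 in total) left 15471 genes, compared with edgeR 4.0.16 in R 4.3.3 (TMM, robust glmQLFit and glmQLFTest, 2-sided, Benjamini-Hochberg over all tested genes, threshold 0.05). The fit was tested on simulated data. Scores used log2 CPM with prior count 2. With 3 libraries on each side the smallest exact permutation p is 0.1. The labels do not say whether libraries came from separate litters, and p-values reflect the spread among these libraries, which may be technical.

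Members and lists were chosen with earlier results of these data known. Genes were named by rule: all members; from each vascular list every call, or with none the 2 genes of lowest p, with the highest and lowest log2 fold change at 1 CPM or more; the 10 genes nearest the endothelial amount and the arterial score; and Shh, Ihh and Ptf1a. Lists of other cell types are given as counts and sums. Of the lists, 1 lymphatic and 1 neural tube gene are not used here.

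The replicate numbers in the labels are shared by the groups. Same-numbered libraries deviated together from their group means, with correlations of 0.194, 0.144 and 0.275 for numbers 1, 2 and 3 over all tested genes, so a fit with the number as a block was made as an alternative. The others were DESeq2 1.42.0, relative log expression scaling, no filter, prior count 0.5, the pan-endothelial list as the measure of endothelium, and leaving out each library.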

Additional observations from a re-analysis of the deposited data

How the results depend on the processing

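Over the 15471 genes, 6 were higher and 3 lower in Sd/Sd at the threshold; DESeq2 gave 19 and 15, no filter gave 9 and 5, and leaving out 1 library gave 2 to 5 higher and 0 to 1 lower. With the replicate block the counts were 8 and 4, and the calls of Shh and Ihh held. The median log2 fold change of the 8 arterial genes lay between -0.39 and -0.26 in all 10 alternatives run. The difference in endothelial amount, -0.26, lay between -0.39 without Sd/Sd replicate 3 and -0.16 without Sd/Sd replicate 2, and was -0.17 with the pan-endothelial list. The arterial score minus endothelial amount, -0.09, lay between -0.20 and 0.12 when 1 library was left out, above 0 only without Sd/Sd replicate 3, and was -0.18 with the pan-endothelial list. Signs of genes that did not pass turned when 1 library was left out; the cause was not tested. The lowest and highest log2 fold changes then were -0.12 and 0.044 for Hey2, -0.40 and 0.10 for Efnb2, -0.21 and 0.37 for Etv2, -0.14 and 0.067 for Ltbp4, -0.17 and 0.003 for Dab2, -0.035 and 0.50 for Nr2f2, -0.081 and 0.27 for Pdpn, -0.40 and 0.041 for Dll3, -0.068 and 0.35 for Pgf, -0.18 and 0.37 for Gjb5 and -0.13 and 0.082 for Gja1. Without Sd/Sd replicate 3, 16 of 26 pan-endothelial genes, 3 of 11 other arterial genes and both Pecam1 and Cdh5 lay under every WT library, against 1, 1 and 0 with it, where 10.6% of all genes did without that library and 4.42% with it; this was chosen after seeing the data. Each member had at least 443 counts in every library.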
